A study of Mus musculus with 35 samples.

Results

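Gene expression of 8 arrays was compared: the 4 arrays titled plasmablast and the 4 titled transitional B, of 35 arrays in the series, chosen by their titles alone. The 35 arrays form 9 groups of sorted normal B-cell stages and lymphoid tumours, measured on the Affymetrix Mouse 430A2 array. Both groups were wild-type B cells purified from spleen by flow cytometry. The transitional cells came from strain 129 and carried the surface proteins B220 and CD93. The plasmablasts came from strain B6, carried B220 and CD138 (the protein of Sdc1), and lacked CD93. The 5 arrays of germinal centre B cells (B220 and high PNA binding, wild-type, spleen, strain B6) served as a second comparison. The labels name no age, immunization or number of mice per array, and do not say whether replicates came from separate animals, so the p-values measure only the spread between these arrays, which may be technical. Strain and stage differ together in the 8 arrays and cannot be told apart.

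Transitional B cells are young B cells that have just left the bone marrow for the spleen and have not yet met antigen. Plasmablasts are activated B cells that divide while turning into antibody-secreting plasma cells. The change is known to be driven by the transcription factors Irf4, Prdm1 and Xbp1, which shut down the B-cell program of Pax5 and Bcl6 and expand the endoplasmic reticulum (ER), where antibody chains are folded, joined, glycosylated and sent to the Golgi. Xbp1 and the stress sensor Atf6 are known to act through short promoter elements, among them the ER stress response element (ERSE, the letters CCAAT, 9 bases of any kind, and CCACG) and a core of the letters TGACGTGG.

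The sort markers were examined first, and at the probe set used for each gene their transcripts did not separate the groups. All values are deposited log2 intensities, and a difference of 1 is a 2-fold change. Sdc1 was at 8.59, 8.69, 6.85 and 7.98 in transitional arrays 1 to 4 and at 9.06, 9.99, 10.44 and 5.52 in plasmablast arrays 1 to 4. Plasmablast arrays 1 to 3 were above every transitional array and array 4 was below them all. The difference was 0.73 ± 0.89 (SE, n = 4 and 4, limma adjusted p = 0.581). Cd93 was at 7.75, 7.51, 5.03 and 5.64 in the transitional arrays and at 5.00, 5.90, 6.38 and 5.52 in the plasmablast arrays. Transitional arrays 1 and 2 stood above all plasmablast arrays, whereas arrays 3 and 4 lay within their range. The Cd93 difference was -0.78 ± 0.56 (limma adjusted p = 0.345). A second, dimmer Cd93 probe set did separate the groups, at 5.104 to 6.542 in the transitional and 4.335 to 4.951 in the plasmablast arrays. With each probe set fitted on its own, its difference was -1.06 ± 0.31 and was not called (limma adjusted p = 0.055). Ptprc, which encodes the protein carrying the B220 epitope, lay between 10.21 and 10.91 in all 8 arrays. The groups are therefore called by their titles below, and the main counts are also given without plasmablast array 4 or transitional arrays 3 and 4, which were singled out after their values were seen.

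**Figure D1:**
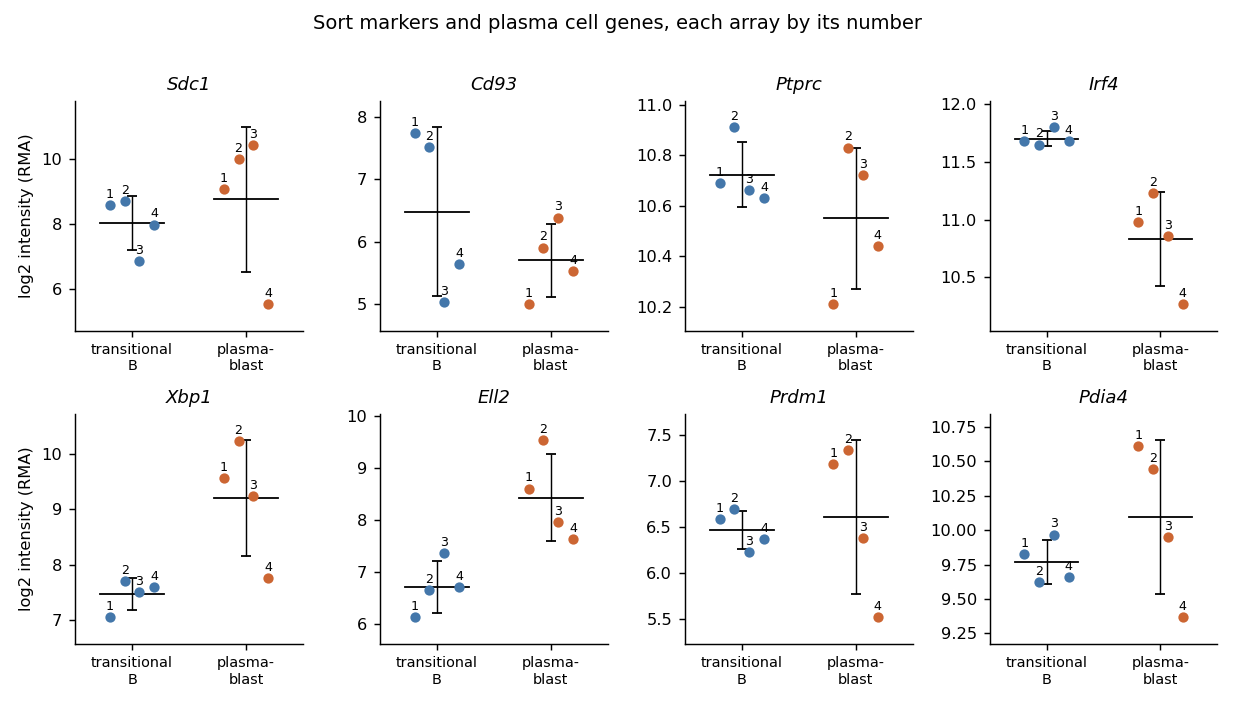
Log2 intensity of 8 genes in each array of both groups, with points numbered by array and black bars for the mean and SD of 4 arrays. Plasmablast array 4 had the lowest Sdc1 value of all, 5.52. Transitional arrays 3 and 4 had Cd93 at 5.03 and 5.64, within the plasmablast range of the probe set shown.

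Over all genes, the transitional arrays split into pairs on the second principal component (19.4% of the variance), with arrays 1 and 2 at 24.88 and 25.12 and arrays 3 and 4 at -23.49 and -50.88. The plasmablast arrays lay between -0.65 and 10.77. Plasmablast arrays correlated with each other at 0.971 to 0.991, transitional arrays at 0.938 to 0.969, and arrays of the different groups at 0.928 to 0.967, across the same 12393 genes. The interquartile range of the values was 3.26 to 3.67 in the transitional arrays and 3.70 to 4.07 in the plasmablast arrays. The 3' minus 5' signal of control transcripts, a measure of RNA length, was 2.21 in transitional array 4 and 0.78 to 1.16 in the other 7 arrays. The mean of all genes was 5.48 in plasmablast array 4, against 5.64 to 5.83 in the others.

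Across 12393 genes, 394 were called higher in the plasmablast arrays (3.18% of genes tested) and 955 lower (7.71%), together 10.9%, at a limma adjusted p under 0.05. Of these, 304 rose and 420 fell at least 2-fold. The median difference of all genes was -0.22, and 748 of the 955 lower calls but 81 of the 394 higher calls were of genes whose mean was under that of the median gene, 5.37. With the 8 arrays brought to the same distribution once more, 355 were called higher (2.86%) and 333 lower (2.69%), and the median difference was -0.04. Calls depended on single arrays: 285 and 449 genes were called without transitional array 1 or 2, and 94, 37, 513 and 823 without plasmablast array 1, 2, 3 or 4. In all 8 such fits 27 genes stayed called higher and 9 lower. Of the 147 genes chosen to be named, 88 were called, and of these 75, 77, 48 and 22 lost their call without plasmablast array 1, 2, 3 or 4, and 62, 49, 14 and 18 without transitional array 1, 2, 3 or 4. The 22 lost without plasmablast array 4 were Bbc3, Bmf, Cd27, Dok3, Erlec1, Fga, Foxo1, Il6ra, Irf4, Junb, Jund, Klf4, Maff, Mid1, Myc, Ndufb5, Nr4a1, S100a8, Slc1a4, Tnfaip3, Treml1 and Tusc3, with limma adjusted p there from 0.0506 for S100a8 to 0.085 for Treml1. Without transitional arrays 3 and 4 together, the 19 lost were Bub1b, Cd44, Ddost, Derl3, Fga, Fosb, Igkv6-14, Irf4, Lman1, Mcm2, Myc, Nkg7, Nr4a1, Pdia3, Sdf2l1, Sel1l, Spcs2, Top2a and Tusc3. The 11 named genes called in all 8 fits were Alb, Atf3, Cdh2, Col1a1, Dpagt1, Ltf, Ngp, Nts, Rbpms, Rrs1 and Ttr. With a shared spread from all 22 normal arrays, 67 genes were called (0.541%).

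**Figure D2:**
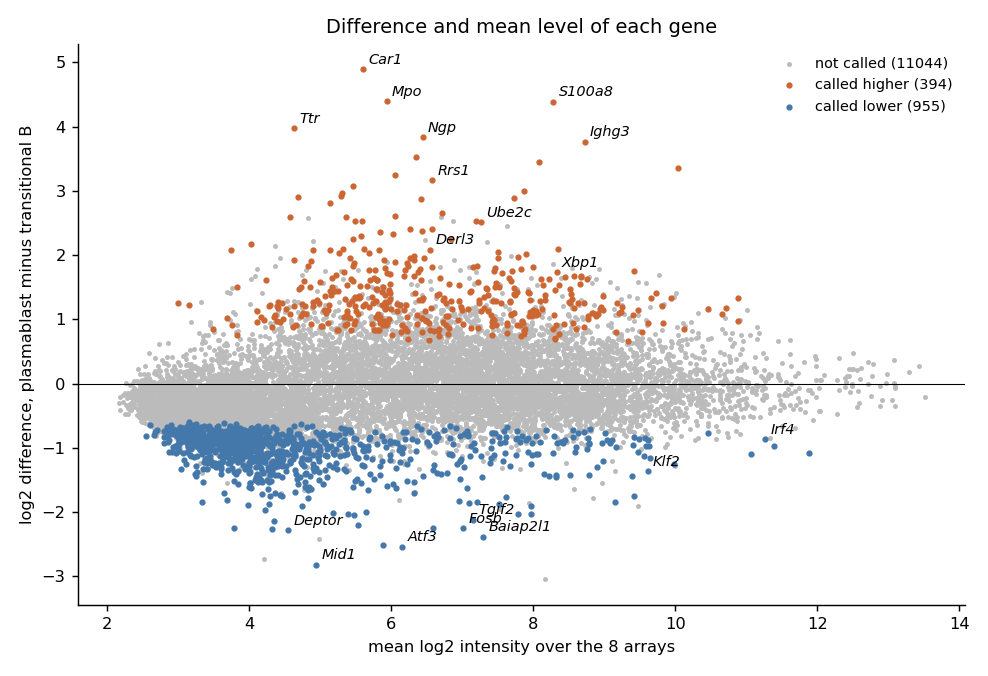
Each point is a gene, with its mean log2 intensity over the 8 arrays on the horizontal axis and its log2 difference, plasmablast minus transitional B, on the vertical axis. Of the 955 lower calls, 748 lie under the median gene mean of 5.37, and of the 394 higher calls, 81 do.

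Among regulators of the plasma cell state, Xbp1 and Ell2 rose and Irf4 fell, while Prdm1 was not called. Xbp1 was at 7.05, 7.70, 7.50 and 7.60 in the transitional arrays and at 9.56, 10.23, 9.23 and 7.76 in the plasmablast arrays. All plasmablast arrays were above all transitional arrays, although array 4 exceeded the highest of them only slightly. The difference was 1.73 ± 0.43 (limma adjusted p = 0.0333), and 3 of its 4 probe sets were called higher when each was fitted on its own (3.05% of all probe sets were higher and 6.18% lower). Ell2, an elongation factor that favours the secreted form of the heavy chain transcript, was at 6.12, 6.65, 7.35 and 6.70 against 8.59, 9.52, 7.96 and 7.63 (1.72 ± 0.39, limma adjusted p = 0.0279). Irf4, which is needed for plasma cell formation, was at 11.65 to 11.80 in the transitional arrays and 10.27 to 11.23 in the plasmablast arrays (-0.87 ± 0.23, limma adjusted p = 0.0381). Its level was thus high in both groups, both of its probe sets were called lower, and the call was lost without plasmablast array 4 (limma adjusted p = 0.067). Prdm1, the repressor that ends the B-cell program, was at 6.23 to 6.69 and at 7.18, 7.34, 6.38 and 5.52 (0.14 ± 0.36, limma adjusted p = 0.811). Over the list of 11 such regulators, 2 were called higher and 1 lower, with a median difference of 0.28. Over all genes, 3.18% were called higher and 7.71% lower, with a median of -0.22.

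Against germinal centre B cells of the same strain, Xbp1 differed by 1.25 (limma adjusted p = 0.065), Ell2 by -0.80 (0.13), Irf4 by 0.50 (0.42) and Prdm1 by 0.79 (0.15), none of them called. Both comparisons share the plasmablast arrays, so their values are set side by side and no agreement is counted. In that comparison 12.7% of the same genes were called, 811 higher (6.54%) and 762 lower (6.15%).

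Myc, a driver of growth, fell from 10.69 to 11.06 in the transitional arrays to 9.67 to 10.30 in the plasmablast arrays (-0.77 ± 0.21, limma adjusted p = 0.0408), and was 1.59 above the germinal centre arrays (limma adjusted p = 0.041). The call against transitional cells was lost without plasmablast array 4 (limma adjusted p = 0.080). Pax5 (-0.56 ± 0.32, limma adjusted p = 0.242) and Bcl6 (-0.37 ± 0.25, limma adjusted p = 0.327) were not called. Yy1, the zinc finger factor in the title of the series, did not pass either (0.41 ± 0.26, limma adjusted p = 0.279). Pax5 was dim, at 3.909 to 5.368 in the transitional and 3.994 to 4.754 in the plasmablast arrays, under the median gene mean of 5.372. Its means were also low in pro-B (3.98), pre-B (4.63) and germinal centre arrays (3.64), so this probe set says little on whether Pax5 was kept or lost. It was called lower without plasmablast array 4 and transitional arrays 3 and 4 (-0.98, limma adjusted p = 0.018). Of 18 surface and secretory markers of plasma cells, 2 were called higher and 1 lower, beside 3.18% of all genes higher and 7.71% lower. Those higher were Cd44 (1.15 ± 0.33, limma adjusted p = 0.0470) and Cd27 (0.96 ± 0.25, limma adjusted p = 0.0369). The receptor subunit Il6ra was called lower, at 7.18 to 8.16 against 5.48 to 6.97 (-1.29 ± 0.33, limma adjusted p = 0.0367).

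Most immunoglobulin genes were not called, but those called higher were a larger share than the 3.18% of all genes. With all 8 arrays they were Ighg3 and the variable segments given below as rising, and none was called lower. More were called higher without plasmablast array 4, singled out after its values were seen, when 3.55% of all genes were. Immunoglobulin levels ranged from near the top of the scale in both groups (Ighm, Igkv8-30) to under the median gene mean in both (Igkv5-39 at 4.20 to 5.10). Ighg3, the constant region of IgG3, was at 6.16, 4.54, 8.31 and 8.36 in the transitional arrays and at 11.44, 11.99, 10.98 and 8.01 in the plasmablast arrays. Plasmablast arrays 1 to 3 lay above all transitional arrays, and array 4 lay below transitional arrays 3 and 4. The difference was 3.76 ± 0.95 (limma adjusted p = 0.0351), and 1 of the gene's 4 probe sets was called higher. Igha, the constant region of IgA, was at 10.33, 10.59, 10.28 and 11.31 against 12.40, 12.70, 11.03 and 5.09. Its difference was -0.32 ± 1.32 (limma adjusted p = 0.879), and it was 1.41 without plasmablast array 4 (limma adjusted p = 0.062), not called in either fit.

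Jchain, which joins IgM and IgA into polymers, was at 8.78 to 9.82 in the transitional arrays and at 11.28, 12.49, 10.66 and 8.19 in the plasmablast arrays (1.35 ± 0.70, limma adjusted p = 0.201; 2.17 and 0.025 without array 4). Ighm was at 12.24 to 12.99 against 13.47, 13.61, 13.25 and 11.21 (0.34 ± 0.46, limma adjusted p = 0.618). Its 11 probe sets differed: 8 were higher by value in the plasmablast arrays, none was called higher, and 1 was called lower. The largest differences were 3.16 to 4.15. In those probe sets plasmablast arrays 1 to 3 stood above all transitional arrays, and array 4 stood below transitional arrays 3 and 4. The probe set called lower was dim, at 4.05 to 6.58 in the transitional and 3.2 to 4.09 in the plasmablast arrays. Among light chain genes, the variable segments Igkv6-20 (1.82 ± 0.34, limma adjusted p = 0.0200) and Igkv6-14 (1.66 ± 0.48, limma adjusted p = 0.0484) rose. Without plasmablast array 4 both stayed called. Several further light chain segments were then called higher (limma adjusted p from 0.0105 to 0.0342), and others were not. Igkv8-30, near the top of the scale at 13.13 to 13.28 and 12.83 to 13.61, was not called (limma adjusted p = 0.566). Some variable segments of a family are near-identical, and a probe set may pick up more than its named segment.

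**Figure D3:**
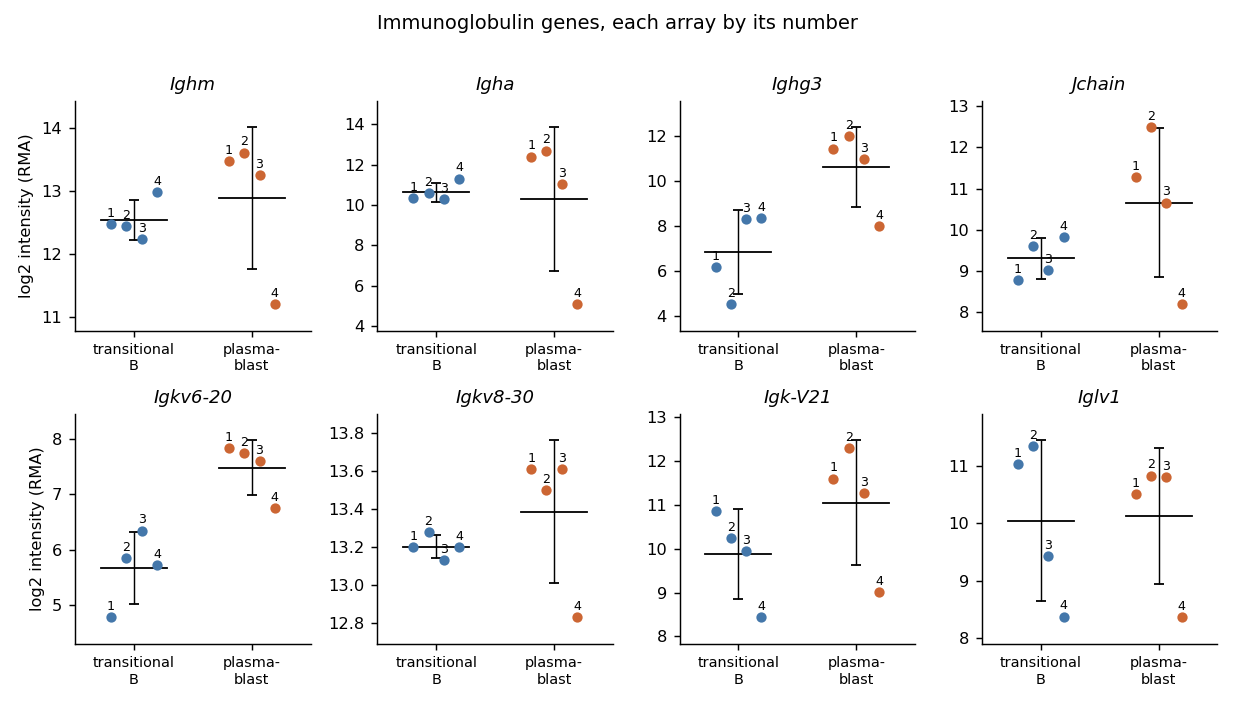
Log2 intensity of 8 immunoglobulin genes in each array, with points numbered by array and black bars for the mean and SD of 4 arrays. Plasmablast array 4 had the lowest plasmablast value in all 8 panels, with Igha at 5.09 against 11.03 to 12.70 in the other plasmablast arrays.

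The machinery that folds and exports antibody was next examined in 6 lists of ER and secretory genes. Few members passed the test with all 8 arrays, when 3.18% of all genes were called higher. More did without plasmablast array 4, which was singled out after its low values were seen. Without plasmablast array 2, N-glycosylation had 1 member called higher and each other list 0, when 28 of all 12393 genes were called higher. Of 26 ER chaperones and folding enzymes, 2 were called higher and 0 lower (median difference 0.34, against -0.22 for all genes), and 8 and 0 without plasmablast array 4, when 3.55% of all genes were called higher and 3.09% lower. The mean level of the list was 8.33 to 8.50 in the transitional arrays and 9.20, 9.26, 8.98 and 7.94 in the plasmablast arrays. Plasmablast arrays 1 to 3 were above all transitional arrays in this list and array 4 was below them. The called members were the disulfide isomerase Pdia3 (7.67 to 8.81 against 8.78 in array 4 and 9.61 or more in the others; 1.19 ± 0.31, limma adjusted p = 0.0384) and the chaperone complex member Sdf2l1 (6.50 to 6.85 against 9.14, 8.83, 8.08 and 6.79; 1.50 ± 0.42, limma adjusted p = 0.0450).

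Pdia4, a disulfide isomerase chosen as a marker of the plasmablast arrays, was at 9.82, 9.62, 9.97 and 9.66 in the transitional arrays and 10.61, 10.44, 9.95 and 9.37 in the plasmablast arrays. The groups overlapped, and the difference of 0.32 ± 0.27 was not called (limma adjusted p = 0.414). Against germinal centre B cells, at 5.20 to 8.21, Pdia4 was 3.64 higher (limma adjusted p = 0.0035). It was called in that comparison and not in the comparison with transitional cells; whether those differences differ was not tested.

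In ER-associated degradation, which removes misfolded chains, 3 of 19 genes were called higher and 0 lower (median 0.30), beside 3.18% and 7.71% of all genes. Derl3, a membrane component of that pathway, was at 6.03, 5.25, 5.25 and 5.48 against 8.12, 8.71, 7.83 and 5.68. Plasmablast array 4 again lay with the transitional arrays and the other 3 were well above. The difference was 2.08 ± 0.53 (limma adjusted p = 0.0351), 2.72 without array 4 (limma adjusted p = 0.0019), and 1.75 against germinal centre B cells (limma adjusted p = 0.042). Sel1l, the partner of the ubiquitin ligase Syvn1, rose by 1.18 ± 0.33 (limma adjusted p = 0.0467), and the lectin Erlec1 by 1.13 ± 0.31 (limma adjusted p = 0.0442).

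N-glycosylation had 4 of 21 members higher and 1 lower (median 0.47), beside 3.18% of all genes higher and 7.71% lower. Dpagt1, which starts the sugar chain on its lipid carrier, was at 3.31, 4.32, 3.01 and 4.04 against 5.65, 5.69, 5.53 and 5.49. Its groups were clearly separate in every array, plasmablast array 4 included, and it was called in all 8 fits that left out an array (1.92 ± 0.28, limma adjusted p = 0.0107). The oligosaccharyltransferase subunits Rpn2 (1.30 ± 0.29, limma adjusted p = 0.0277) and Ddost (1.08 ± 0.31, limma adjusted p = 0.0485) and the sugar nucleotide enzyme Uap1 (1.40 ± 0.33, limma adjusted p = 0.0286) rose. Tusc3, another oligosaccharyltransferase subunit, fell by 0.70 (SE 0.19, limma adjusted p = 0.0437).

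For transport from ER to Golgi, 2 of 28 genes were called higher and 0 lower (median 0.55), beside 3.18% and 7.71% of all genes. The 2 were the coat subunit Copa (1.12 ± 0.22, limma adjusted p = 0.0208) and the cargo receptor Lman1 (1.50 ± 0.39, limma adjusted p = 0.0385). Lman1 was at 6.18 to 6.95 in the transitional arrays and at 8.64, 8.61, 8.37 and 6.72 in the plasmablast arrays, so array 4 overlapped with the transitional values. Without plasmablast array 4 and transitional arrays 3 and 4, 13 of the 28 were higher and 0 lower, when 10.1% of all genes were called higher and 16.5% lower. Those arrays were singled out after their values were seen. With all 8 arrays, translocation into the ER had 1 of 21 members higher, a share near the 3.18% of all genes. It was the signal peptidase subunit Spcs2 (1.25 ± 0.34, limma adjusted p = 0.0407).

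The sensors and effectors of the unfolded protein response had 1 of 12 higher and 1 lower, with a median of -0.55. Over all genes, 3.18% were called higher and 7.71% lower, with a median of -0.22. Wfs1, an ER membrane protein, rose by 1.22 ± 0.23 (limma adjusted p = 0.0197). Atf3, a stress-induced transcription factor, was at 7.51, 7.75, 7.38 and 7.03 against 4.77, 4.94, 5.30 and 4.51, and fell by 2.54 (SE 0.24, limma adjusted p = 0.0017). The groups were far apart in every array, and Atf3 was the only gene called in each of the 20 alternative fits.

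**Figure D4:**
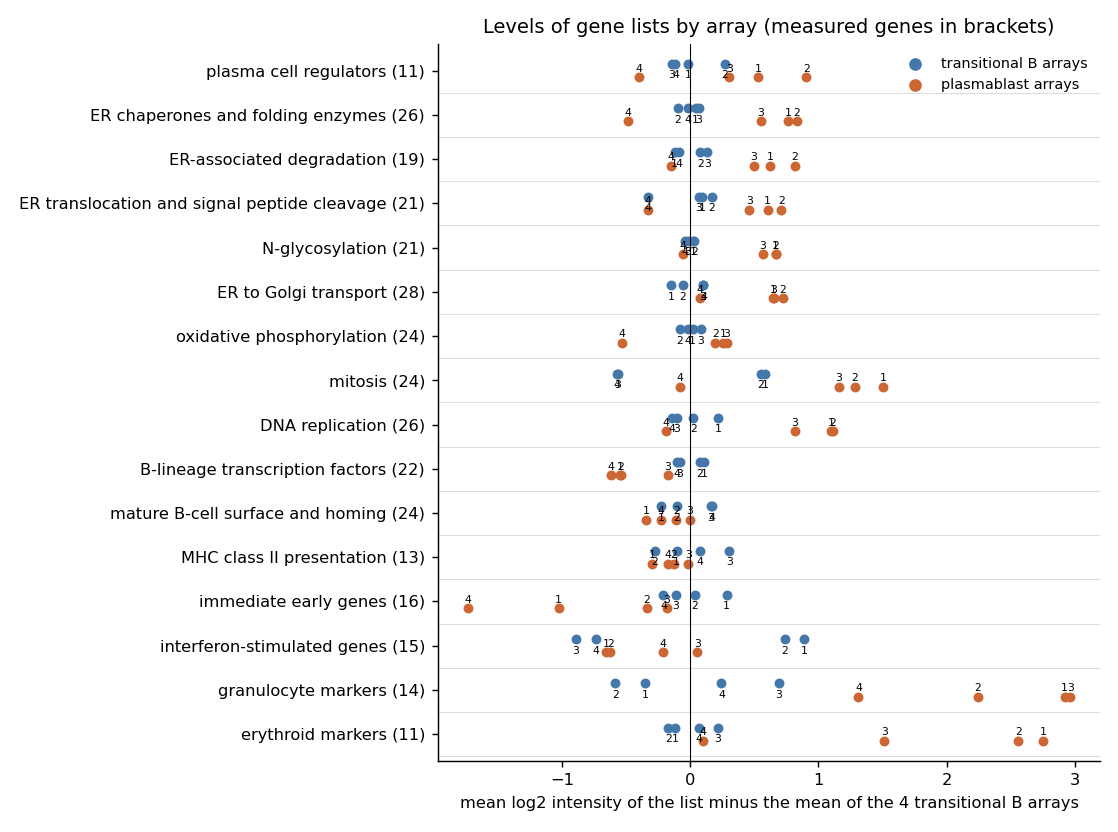
Mean log2 intensity of 16 gene lists in each array, minus the mean of the 4 transitional arrays, with points numbered by array and the number of measured genes in brackets. Plasmablast arrays 1 to 3 lie to the right of all transitional arrays in the 5 secretory lists, from chaperones to ER to Golgi transport, while array 4 lies among or to the left of them.

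The promoters of the same 6 lists were read for the ER stress elements, since these are the letters through which the folding genes are known to be induced together. In RefSeq promoters of build GRCm38.p6, covering 250 bases before to 50 after each gene's start, 8 of the 23 chaperone genes with a promoter (34.8%) held an ERSE on either strand, against 37 of 27025 genes in all (0.137%). Over the 6 lists together, 11 of 105 genes (10.5%) held an ERSE and 10 (9.52%) the core TGACGTGG, which 0.714% of all promoters held. No match of both elements fell in the same gene of these lists. The 12 ERSE matches follow, each written from CCAAT to CCACG with those letters in capitals.
Alg12 and Creld2 (chr15:88819520-88819538, between the 2 genes, which run in opposite directions): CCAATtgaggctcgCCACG
Calr (chr8:84847075-84847093): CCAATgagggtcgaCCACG
Canx (chr11:50325800-50325818): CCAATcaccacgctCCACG
Derl3 (chr10:75893242-75893260): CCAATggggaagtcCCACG
Dnajc3 (chr14:118937827-118937845): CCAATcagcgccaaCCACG
Ero1b (chr13:12565682-12565700): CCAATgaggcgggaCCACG
Hsp90b1, nearer the start (chr10:86705533-86705551): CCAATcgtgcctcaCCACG
Hsp90b1, farther from it (chr10:86705638-86705656): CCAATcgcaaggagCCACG
Hspa5 (chr2:34772025-34772043): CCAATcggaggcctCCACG
Pdia6 (chr12:17266491-17266509): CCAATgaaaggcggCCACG
Syvn1 (chr19:6046532-6046550): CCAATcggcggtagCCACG

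All 12 matches began 44 to 220 bases before a gene's start. Of the 11 genes that hold them, 9 had a difference above 0 (median 0.50), 1 was called higher with all 8 arrays (3.18% of all genes were), and 3 without plasmablast array 4 (3.55% of all genes). Plasmablast array 4 was left out after its low secretory values were seen, and transitional arrays 3 and 4 were also chosen after seeing the data. Larger counts in fits without them may follow from that choice. With only plasmablast arrays 1 to 3 and transitional arrays 1 and 2 kept, 10.1% of all genes were called higher and 16.5% lower. Of the 11 genes, 6 were called higher there and 0 lower. These 6 were Derl3, the secreted folding factor Creld2 (2.21, limma adjusted p = 0.00078), the ER Hsp90 chaperone Hsp90b1 (2.02, limma adjusted p = 0.0074), the ER Hsp70 chaperone Hspa5 (1.61, limma adjusted p = 0.0086), its cochaperone Dnajc3 (1.53, limma adjusted p = 0.0047) and the mannosyltransferase Alg12 (0.78, limma adjusted p = 0.0270). Creld2 and Alg12, which share a single match between them, differed in size. The other genes that hold the element were not called in any of these fits. With all arrays the oxidoreductase Ero1b was at -0.41 ± 0.21 (-0.46 without the 3 arrays), the lectin chaperones Calr at -0.05 ± 0.31 and Canx at 0.52 ± 0.27, the isomerase Pdia6 at 0.35 ± 0.42 and Syvn1 at 0.08 ± 0.21. A match is a description of letters, and its use was not tested. Derl3, the gene of this group called with all 8 arrays, has the following promoter on the plus strand (chr10:75893148-75893447), with the letters of its ERSE, which here runs on the opposite strand, in capitals.
Derl3: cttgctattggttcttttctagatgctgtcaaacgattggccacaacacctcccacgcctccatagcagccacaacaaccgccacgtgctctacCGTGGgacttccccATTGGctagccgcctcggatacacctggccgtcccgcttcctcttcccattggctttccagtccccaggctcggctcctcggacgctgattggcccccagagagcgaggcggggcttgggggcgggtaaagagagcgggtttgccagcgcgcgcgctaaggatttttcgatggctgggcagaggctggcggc

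Genes of cell division were higher in most plasmablast arrays. Of 24 mitosis genes, 4 were called higher and 0 lower (median 1.02), beside 3.18% of all genes higher and 7.71% lower (median -0.22). Without plasmablast array 4 the counts were 13 and 0, beside 3.55% and 3.09% of all genes. Without plasmablast array 2 they were 0 and 0, when 28 of all 12393 genes were called higher and 9 lower. The list level was 6.45, 6.42, 5.31 and 5.30 in the transitional arrays and 7.37, 7.15, 7.03 and 5.79 in the plasmablast arrays. Transitional arrays 1 and 2 were thus above plasmablast array 4. Ube2c, which helps mark proteins for destruction at mitotic exit, was at 6.01, 6.82, 5.11 and 6.07 against 9.62, 9.004, 8.27 and 7.17 (2.52 ± 0.49, limma adjusted p = 0.0210). The kinase Plk1 (1.22 ± 0.26, limma adjusted p = 0.0236), the checkpoint kinase Bub1b (1.20 ± 0.35, limma adjusted p = 0.0494) and the topoisomerase Top2a (1.53 ± 0.44, limma adjusted p = 0.0485) rose as well. When only transitional arrays 3 and 4 were left out, 2 mitosis genes were called higher and 1 lower, beside 7.19% higher and 17.1% lower over all genes.

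Of 26 DNA replication genes, 2 were called higher and 0 lower (median 0.59), beside 3.18% of all genes higher and 7.71% lower. The 2 were the replicative helicase subunits Mcm6 (1.96 ± 0.41, limma adjusted p = 0.0223) and Mcm2 (1.15 ± 0.30, limma adjusted p = 0.0371). Without plasmablast array 4 the counts were 12 and 0, beside 3.55% and 3.09% of all genes. Without plasmablast array 2 they were 0 and 0, when 28 of all 12393 genes were called higher and 9 lower. Against germinal centre B cells, which are known to divide fast, 0 mitosis genes were higher and 4 lower, and 0 replication genes were higher and 5 lower. The median differences there were -1.04 and -0.61. Of all genes, 6.54% were called higher and 6.15% lower in that comparison. Against transitional cells, oxidative phosphorylation had 1 of 24 genes higher, Ndufb5 (1.06 ± 0.27, limma adjusted p = 0.0364), a share near the 3.18% of all genes. Amino acid supply had 0 of 22 higher and 1 lower, beside 7.71% of all genes lower. It was the transporter Slc1a4 (-0.89 ± 0.24, limma adjusted p = 0.0397).

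Several regulators of B-cell identity and early activation fell. Of 22 B-lineage transcription factors, 0 were called higher and 3 lower (median -0.48), beside 7.71% of all genes lower (median -0.22). Without plasmablast array 4, 2 of them were called lower, beside 3.09% of all genes. Klf2, which keeps resting B cells in place, was at 10.37, 10.40, 10.08 and 10.33 against 8.52, 8.68, 9.79 and 8.72 (-1.37 ± 0.28, limma adjusted p = 0.0219). All plasmablast arrays were below all transitional arrays, with array 3 the nearest. Foxo1 (-1.13 ± 0.25, limma adjusted p = 0.0277) and Ebf1 (-0.93 ± 0.21, limma adjusted p = 0.0277) were the others, and none of these 3 differed from germinal centre B cells at the threshold (limma adjusted p = 0.11, 0.47 and 0.27). Of 24 mature B-cell surface genes 1 was called lower, beside the same 7.71% of all genes. It was the homing receptor Ccr7, at 9.26 to 9.88 against 7.96 to 8.57 (-1.30 ± 0.23, limma adjusted p = 0.0197). Ccr7 was 0.89 above the germinal centre arrays (limma adjusted p = 0.049).

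B-cell receptor signalling had 2 of 20 genes lower, a share near the 7.71% of all genes, and 1 of 20 without plasmablast array 4. They were the adaptor Dok3 (-0.96 ± 0.23, limma adjusted p = 0.0297) and the exchange factor Vav2 (-1.17 ± 0.22, limma adjusted p = 0.0204). Of 13 genes of MHC class II presentation, 0 were called by limma in either direction and 0 had an unadjusted p under 0.05. The list level was 10.05 to 10.63 in the transitional and 10.03 to 10.31 in the plasmablast arrays. Of 11 germinal centre genes, 1 was lower, Mybl1 (-1.30 ± 0.28, limma adjusted p = 0.0245), beside the same 7.71% of all genes. Against the germinal centre arrays, 10 of the 11 were lower in the plasmablast arrays, beside 6.15% of all genes.

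Immediate early genes, which are induced within minutes of stimulation, had 5 of 16 members lower and 0 higher (median -0.85). Over all genes, 7.71% were lower (median -0.22). Fosb was at 8.28, 7.42, 8.66 and 8.20 in the transitional arrays and at 5.72, 7.13, 6.78 and 3.92 in the plasmablast arrays (-2.25 ± 0.58, limma adjusted p = 0.0371). Klf4 (-2.04 ± 0.47, limma adjusted p = 0.0279), Nr4a1 (-1.91 ± 0.46, limma adjusted p = 0.0317), Junb (-1.52 ± 0.35, limma adjusted p = 0.0279) and Jund (-0.97 ± 0.26, limma adjusted p = 0.0417) were the others. Without plasmablast array 4, 1 of the 16 was called lower, beside 3.09% of all genes. The Bcl2 family and NF-kB counts with all 8 arrays also stand beside 7.71% of all genes lower. The Bcl2 family had 2 of 14 lower, the pro-death members Bbc3 (-0.91 ± 0.22, limma adjusted p = 0.0301) and Bmf (-0.82 ± 0.20, limma adjusted p = 0.0346), and both calls were lost without plasmablast array 4 (limma adjusted p = 0.059 and 0.063). Of 13 NF-kB targets, Tnfaip3 was lower (-0.86 ± 0.22, limma adjusted p = 0.0351) and lost its call without plasmablast array 4 (limma adjusted p = 0.063).

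Interferon-stimulated genes set the transitional arrays apart from each other. Their list level was 6.57, 6.42, 4.79 and 4.95 in the transitional arrays and 5.03, 5.06, 5.74 and 5.47 in the plasmablast arrays. Stat2, a signal carrier of type I interferon, was the only member of 15 called, and was lower (-1.14 ± 0.23, limma adjusted p = 0.0221), beside 7.71% of all genes lower. With the mean of its probe sets Stat2 was at 0.019 (limma adjusted p = 0.953), so the call ends and the sign turns with the choice of probe set. Without transitional arrays 3 and 4, none was higher and 9 of 15 were lower, when 7.19% of all genes were higher and 17.1% lower.

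Of the 12 largest increases, 8 were markers of granulocytes, and Car1 and Aqp1 are genes of red cells. Mpo, the peroxidase of neutrophil granules, was at 3.96, 4.44, 3.30 and 3.25 in the transitional arrays and at 9.66, 9.10, 8.65 and 5.12 in the plasmablast arrays (4.39 ± 0.79, limma adjusted p = 0.0197). Ngp, another granule protein, was at 4.14, 3.66, 5.78 and 4.51 against 8.39, 8.08, 9.51 and 7.46 (3.84 ± 0.48, limma adjusted p = 0.0068), called in all 8 fits that left out an array. The same direction was seen for S100a8 (4.38 ± 1.10, limma adjusted p = 0.0350), S100a9 (3.36 ± 0.78, limma adjusted p = 0.0283), Lcn2 (3.52 ± 0.73, limma adjusted p = 0.0223), Camp (3.25 ± 0.71, limma adjusted p = 0.0257), Prtn3 (3.08 ± 0.58, limma adjusted p = 0.0198) and Ltf (2.96 ± 0.41, limma adjusted p = 0.0095). S100a8 itself was at 4.19 and 3.00 in transitional arrays 1 and 2 but at 8.64 and 8.53 in arrays 3 and 4.

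Of 14 granulocyte markers, 8 were called higher and 0 lower (median 3.02), beside 3.18% of all genes higher and 7.71% lower. The list level was 3.94, 3.71, 4.99 and 4.54 in the transitional arrays, 7.21, 6.54, 7.26 and 5.61 in the plasmablast arrays, and 5.53 to 7.28 in the germinal centre arrays, against which 1 of 14 was called higher. In that comparison 6.54% of all genes were called higher. Of 11 erythroid markers, 5 were higher than in the transitional arrays and 0 lower (median 2.23), beside the same 3.18% and 7.71% of all genes. Among the 5 were the red cell transcription factor Gata1 (2.81 ± 0.65, limma adjusted p = 0.0279) and the water channel Aqp1 (2.92 ± 0.67, limma adjusted p = 0.0282). The level of the erythroid list was 4.53 to 4.91 in the transitional arrays and 7.45, 7.25, 6.21 and 4.80 in the plasmablast arrays, so array 4 did not share the increase. Car1, a carbonic anhydrase of red cells, had the largest difference of all named genes, from 2.75 to 3.45 up to 9.62, 10.10, 7.51 and 4.95 (4.89 ± 0.88, limma adjusted p = 0.0197). In such bulk samples, more cells of a type and more RNA per cell cannot be told apart. The part of these cell types in the increases of secretory and division genes was not tested.

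Markers of other cells gave fewer calls, beside 3.18% of all genes called higher and 7.71% lower. Of 13 T-cell markers 1 was higher, Cd3e (1.08 ± 0.24, limma adjusted p = 0.0270), with list levels of 5.04 to 5.40 and 5.24 to 5.67. Of 10 NK-cell markers 2 were higher, Nkg7 (1.28 ± 0.33, limma adjusted p = 0.0351) and Eomes (1.16 ± 0.29, limma adjusted p = 0.0351), with levels of 4.25 to 4.50 and 4.39 to 5.58. Of 15 macrophage and dendritic cell markers 1 was higher, Cd68 (1.09 ± 0.23, limma adjusted p = 0.0237), with levels of 4.65 to 5.63 and 4.58 to 6.13. Stromal markers had 2 of 12 lower, Col1a1 (-1.77 ± 0.20, limma adjusted p = 0.0028) and Pecam1 (-0.83 ± 0.20, limma adjusted p = 0.0293), and platelet markers 1 of 7 lower, Treml1 (-0.94 ± 0.25, limma adjusted p = 0.0417). Early B-cell genes had 1 of 13 higher, Dntt, the enzyme that adds bases at V(D)J joints, at 3.83 to 4.27 against 5.09 to 6.56 (1.50 ± 0.30, limma adjusted p = 0.0219).

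Ttr, a transport protein of plasma made by liver and brain, was at 2.66, 2.97, 2.59 and 2.36 in the transitional arrays and at 7.72, 6.16, 6.24 and 6.36 in the plasmablast arrays. At this probe set it was clearly higher in every plasmablast array (3.97 ± 0.33, limma adjusted p = 0.0011), and 4.38 above the germinal centre arrays (limma adjusted p = 0.00019). With each probe set fitted on its own, 2 of its 3 were called higher, beside 3.05% of all probe sets. The other was dim and overlapped, at 2.975 to 3.559 in the transitional and 3.402 to 4.519 in the plasmablast arrays. Its difference was 0.63 ± 0.26 (limma adjusted p = 0.131). Of 11 hepatocyte markers 4 were higher and 2 lower, beside 3.18% of all genes higher and 7.71% lower. The 4 were Ttr, Alb (1.91 ± 0.30, limma adjusted p = 0.0141), Apoa2 (1.88 ± 0.42, limma adjusted p = 0.0270) and Fga (0.86 ± 0.21, limma adjusted p = 0.0333). The other calls of that list, Apob (-1.004 ± 0.19, limma adjusted p = 0.0197) and Cyp2c29 (-1.50 ± 0.31, limma adjusted p = 0.0223), were lower. The list level was 3.73 to 4.04 in the transitional, 4.24 to 5.20 in the plasmablast and 3.05 to 3.21 in the germinal centre arrays. Rrs1, a ribosome assembly factor and no marker of another cell type in these lists, was at 4.38, 4.49, 5.43 and 5.67 against 8.40, 8.61, 7.98 and 7.66 (3.17 ± 0.33, limma adjusted p = 0.0023).

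The largest decreases, ranked by the same rule, were of a mixed kind. The ubiquitin ligase gene Mid1 was at 7.29, 8.51, 4.63 and 4.96 in the transitional arrays and at 3.88, 3.23, 3.56 and 3.44 in the plasmablast arrays (-2.82 ± 0.71, limma adjusted p = 0.0348). Transitional arrays 1 and 2 carried most of that difference. The small Maf factor Maff was high in other arrays, at 6.44, 5.44, 7.99 and 8.67 against 4.20 to 4.97 (-2.51 ± 0.57, limma adjusted p = 0.0279). Baiap2l1 (-2.38 ± 0.41, limma adjusted p = 0.0191), the mTOR-binding protein Deptor (-2.28 ± 0.50, limma adjusted p = 0.0254), the cadherin Cdh2 (-2.26 ± 0.33, limma adjusted p = 0.0107), Eps8l1 (-2.25 ± 0.42, limma adjusted p = 0.0198) and the RNA-binding protein Rbpms (-2.20 ± 0.32, limma adjusted p = 0.0107) were lower by similar amounts. Deptor was at 6.38, 7.07, 4.40 and 4.90 in transitional arrays 1 to 4, and Eps8l1 at 5.54, 6.03, 4.05 and 4.03. Cdh2 and Rbpms were also higher in transitional arrays 1 and 2 than in arrays 3 and 4, whereas Baiap2l1 was higher in arrays 3 and 4. The neuropeptide precursor Nts (-2.14 ± 0.26, limma adjusted p = 0.0065), the homeobox repressor Tgif2 (-2.12 ± 0.37, limma adjusted p = 0.0192) and the unnamed gene Gm31556 (-2.05 ± 0.42, limma adjusted p = 0.0221) complete the 12 largest, with Atf3 and Fosb. Of these 12, none was called against the germinal centre arrays, where the limma adjusted p ran from 0.18 for Fosb to 0.89 for Mid1.

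**Figure D5:**
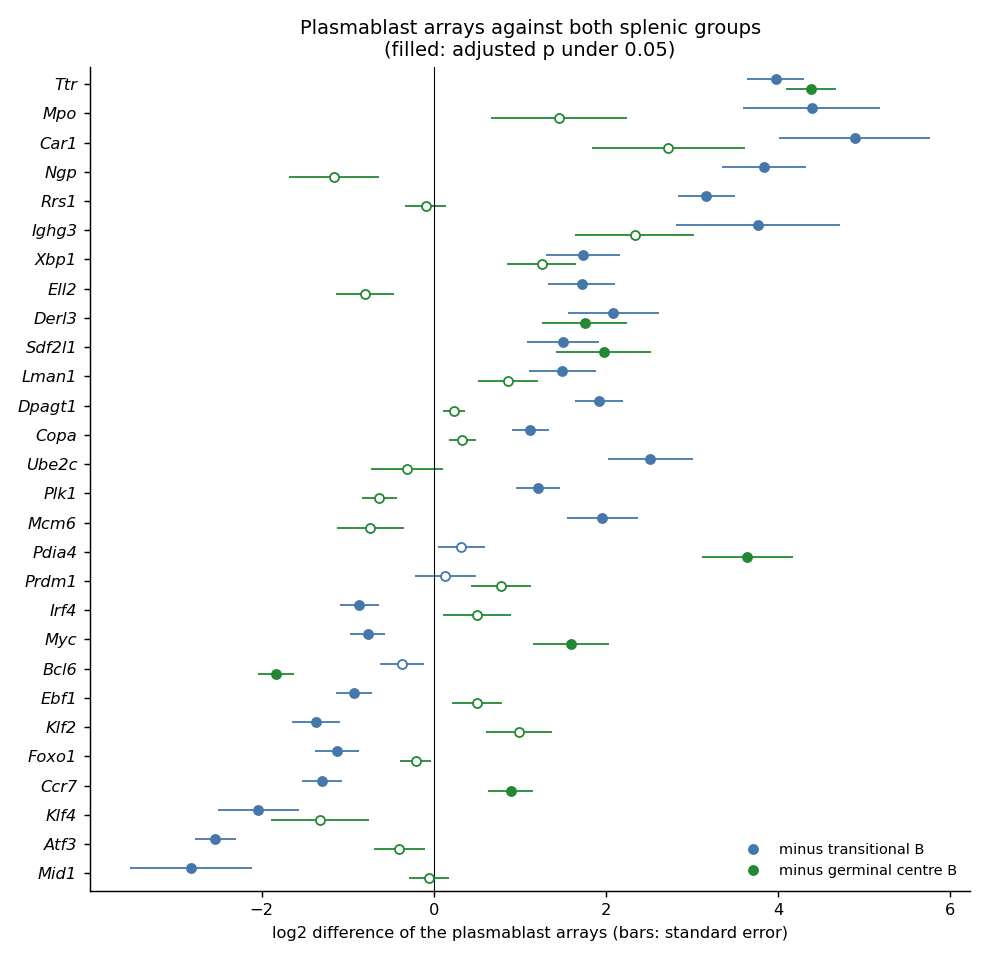
Log2 difference of the plasmablast arrays from the transitional arrays and from the germinal centre arrays for 28 named genes, with bars for the standard error and filled points for a limma adjusted p under 0.05. Ttr, Derl3 and Sdf2l1 are called higher in both, Myc and Ccr7 lower in the first and higher in the second, and Atf3 lower in the first and not called in the second. Both comparisons share the plasmablast arrays.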

How the data were processed

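Per the labels' protocols, RNA of the sorted cells was amplified (NuGen Ovation V2), biotin was used as label, and the array was the Affymetrix Mouse 430A2. The deposited values are log2 intensities that the authors made with RMA, per the submitters' processing notes; its version and the arrays normalized together are not given in the sources used here. Of 22690 probe sets, 64 controls, 691 with several gene symbols and 1555 with none were left out, and 20380 with 1 symbol were used. For each of 12393 genes (4956 with several probe sets) the probe set of highest mean over the 8 arrays was taken, with no filter on level.

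Groups came from the labels. Differences were fitted with limma 3.58.1 in R 4.3.3 (lmFit, eBayes) on the arrays of both groups compared, with Benjamini-Hochberg adjustment over all genes and a threshold of 0.05. The fit was tested on simulated arrays with known changes and independent normal noise. They lack the split of the transitional arrays and the outlying plasmablast array 4, so they say nothing on how those affect the calls. Arrays give no counts, so their number limits the precision. Members and gene lists were chosen with earlier results of these data known, and lists are described by counts and medians only. The genes named are the 12 largest increases and 12 largest decreases among called genes whose arrays do not overlap (no immunoglobulin or T-cell receptor segment and no sort marker), up to 6 called members of each list (the smallest p up to 3 members where fewer were called), 10 regulators and markers, and all immunoglobulin genes; those not described are given in counts. Genes that hold an ERSE are named as that set. Alternatives were other fits, scalings, probe set rules and left-out arrays. The 2 fits without transitional arrays 3 and 4, and the fit of each probe set on its own, were chosen after seeing the data. Same-numbered plasmablast and transitional arrays did not deviate together (correlations -0.0104, -0.0736, -0.0516 and -0.0115), so the numbers do not pair them. Promoters are from RefSeq (GRCm38.p6), with 105 of 127 secretory genes matched by symbol.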

Additional observations from a re-analysis of the deposited data

Results flagged for a closer look

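In 28 of 356 groups of 4 arrays, the highest or lowest array lay so far from the others that its gap, divided by the range of the group, was above Dixon's critical value for 4 values; chance alone flags about 1 in 20 groups, or 18. Plasmablast array 4 was the lowest in 10 of the 28: Bub1b (gap over range 0.903), Ighm (0.851), Igkv8-30 (0.868), Iglv1 (0.872), Lman1 (0.859), Top2a (0.859), Uap1 (0.832), and the list levels of N-glycosylation (0.863), ER to Golgi transport (0.881) and oxidative phosphorylation (0.887). For Ighm it was at 11.21, against 13.25 to 13.61 in the other plasmablast arrays.

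Plasmablast array 1 was the highest for Alb (0.897), Ttr (0.873), Cyp2c29 (0.867) and Bbc3 (0.846); its Ttr value was 7.72, against 6.16 to 6.36. Plasmablast array 2 was the highest for Copa (0.899). Plasmablast array 3 was the highest for Cd4 (0.944), H2-DMa (0.869), Dok3 (0.853), Ltf (0.842) and Klf2 (0.841), with Klf2 at 9.79 against 8.52 to 8.72.

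Among the transitional arrays, array 1 was the highest for Gbp3 (0.954) and Igkv4-68 (0.892) and the lowest for Cd22 (0.863). Array 2 was the highest for Prtn3 (0.907), Il7r (0.876), Klf4 (0.873) and Xcr1 (0.867), and array 4 the lowest for Igkv6-15 (0.879). Interferon-induced Gbp3 was at 6.54 in array 1 and at 5.03 to 5.10 in the others.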

How the results depend on the processing

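Against 1349 genes called with all 8 arrays, 67 were called in the fit of the 22 normal arrays, 7 there with a strain term, 570 with the replicate block, 688 after renewed quantile normalization, 245 without dim genes (of 6197 tested), 2364 with array weights, 3013 without transitional arrays 3 and 4, and 3293 without plasmablast array 4 as well. Among the normal groups only pro-B held both strains, with arrays 1 and 2 of strain 129 and array 3 of strain B6. The strain term therefore rests on the pro-B arrays alone. Leaving out single arrays gave 37 to 1774. The share of calls that were higher was 29.2%, and 51.6% after renewed quantile normalization, 65.7% without dim genes and 53.5% without plasmablast array 4. Of the 1349, 531 were also called with the replicate block and 599 after renewed quantile normalization. Against germinal centre B cells (1573 called), the fit of 22 arrays called 73, single arrays left out gave 676 to 1750, and equal medians moved the share higher from 51.6% to 33.1%. The replicate block there called 1682.

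Of 147 named genes, 5 changed sign in a fit where either value was called. With the strain term, which rests on the pro-B arrays alone, Cd44 was at -0.12, Erlec1 at -0.0565 and Mcm2 at -1.17. A further 83 named genes lost their call there with their sign kept. Igha was at 1.58 without the 3 arrays, and Stat2 at 0.019 with the mean of its probe sets. The fit of 22 arrays ended 68 calls and changed no sign; the cause was not tested. Spread between the 4 arrays of a group, and signal near background for genes of low level, limit what could be called.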
